A study of Mus musculus with 11 samples.

Results

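The class I odorant receptor (OR) genes of the mouse were examined in RNA-seq of the whole main olfactory epithelium (MOE), the nasal tissue that holds the olfactory sensory neurons (OSNs). Members were all genes in the count table with a symbol from Olfr543 to Olfr692, whatever their level. This rule found 115 of the 1125 OR symbols, with 0 symbols that carried a suffix, and left 1010 other OR genes for comparison. The mice were wild type (n = 3), heterozygous (n = 4) or homozygous (n = 4) for a deletion of the olfactory Taar cluster, Taar2 to Taar9, on another chromosome. The Taar genes encode trace amine-associated receptors, a separate family of olfactory receptors. All 11 libraries were labelled as C57BL/6 mice at P1-P2, and the deletion was the only allele in which the groups were said to differ. The reporting part of the study instead gives an older age and a background mixed with 129 for this line, and which of these applies cannot be told from the sources used here. Each library is whole tissue, so fewer cells that express a receptor and less receptor RNA per cell cannot be told apart. Neither the animals behind a library nor the litters are labelled, so the p-values measure the spread between these samples, which may in part be technical.

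OR genes encode G protein-coupled receptors, and a mature OSN expresses as a rule a single allele of a single OR gene. Class I receptors, also called fish-like receptors, form the older OR class, and many respond to acids and other hydrophilic odorants. Their genes lie in a cluster on chromosome 7 that shares a long-range enhancer, the J element, and most are chosen by OSNs of the dorsal zone, where most Taar-expressing OSNs also reside. The comparison therefore asks how transcripts of this receptor class stand in an epithelium without olfactory Taar genes.

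In the mm10 assembly with the GENCODE annotation (release M21) all 115 members were located on chromosome 7, between positions 102476579 and 105369355, a span of 2.89 Mb. Of these, 61 lie on the plus and 54 on the minus strand. GENCODE lists 114 as protein coding and Olfr663 as a polymorphic pseudogene. With a break wherever neighbouring members were more than 100 kb apart, they formed 4 blocks of 66, 15, 11 and 23 members. The gaps between the blocks were 171, 354 and 174 kb. The gap after block 1 holds the β-globin genes and 6 OR genes with other numbers (Olfr64 to Olfr69), and the gap after block 2 holds genes of the Trim family. The location in a single cluster fits the label of class I genes, and a further 9 OR genes in the count table lie inside the same interval under other numbers.

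Several members are recent copies of each other, which limits how far reads can be assigned to a single gene. The closest OR gene of a member had a median of 74.4% identical bases in the reading frame. For 18 members the closest OR gene was at least 95% identical. The closest pair was Olfr603 and Olfr596, with 99.5% identity. The other pairs shown here contain Olfr598 and Olfr611, members whose values are described further on. Stretches of 60 bases of the reading frame are printed from the GENCODE transcripts, 5′ to 3′, with the bases that differ within each pair in capitals.
Olfr603, bases 623 to 682: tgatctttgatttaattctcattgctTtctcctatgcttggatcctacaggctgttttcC
Olfr596, bases 623 to 682: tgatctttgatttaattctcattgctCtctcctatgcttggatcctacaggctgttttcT
Olfr597, bases 1 to 60: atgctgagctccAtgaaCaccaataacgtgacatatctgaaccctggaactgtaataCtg
Olfr598, bases 1 to 60: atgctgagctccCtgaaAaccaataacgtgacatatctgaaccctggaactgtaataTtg
Olfr611, bases 99 to 158: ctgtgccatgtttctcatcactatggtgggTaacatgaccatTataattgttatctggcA
Olfr612, bases 99 to 158: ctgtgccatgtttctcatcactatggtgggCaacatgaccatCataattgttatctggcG
The first of these stretches differs at 2 bases, and the others at 3 each. A read that lies within such a stretch separates the copies only by these positions, and how the authors treated reads with several positions is not given in the sources used here.

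Total counts ranged from 9239866 to 14632525 per library. The 14 Taar genes summed to 87 to 119 counts in wild type, 31 to 96 in heterozygous and 1 to 3 in homozygous libraries, which followed the labels. Homozygous replicate 2 stood apart by its ribosomal transcript Rn45s, which took 25.8% of its counts against 0.0848% to 0.786% in the other libraries. The libraries also fell into 2 sets on the first principal component, which did not follow genotype. Set 1 held replicates 1 and 2 of wild type and of homozygous and replicates 3 and 4 of heterozygous mice. Set 2 held the other libraries, with wild type replicate 3 as its only one of that genotype.

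Values of single libraries are given in the order of their replicate numbers. Class I transcripts were present in all genotypes and took a similar share of OR counts in each. Members summed to 1137, 942 and 1019 counts in the wild type libraries. They summed to 1453, 1100, 858 and 525 counts in the heterozygous libraries, and to 946, 495, 1178 and 1067 counts in the homozygous libraries. The lowest sums were those of heterozygous replicate 4 and homozygous replicate 2, which also held the fewest counts of other OR genes.

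Relative to all OR counts the class I share was 8.38%, 6.86% and 6.07% in the wild type libraries. It was 8.68%, 6.73%, 6.81% and 6.24% in the heterozygous libraries, and 7.73%, 6.76%, 7.38% and 8.47% in the homozygous libraries. The 3 genotypes overlapped, and each held a library above 8% and a library below 7%. The 95% Wilson interval of a single library, which covers counting error only, was 7.93% to 8.86% in wild type replicate 1 and 5.72% to 6.44% in wild type replicate 3. The spread between wild type libraries thus exceeded counting error. The mean share in wild type was 7.10% ± 1.17 (SD, n = 3), that in heterozygous libraries 7.11% ± 1.08 (SD, n = 4) and that in homozygous libraries 7.59% ± 0.715 (SD, n = 4). Relative to wild type the homozygous mean was 106.8% and the heterozygous mean 100.1%, and both differences were smaller than the SD within wild type. Per 1000 counts of other OR genes, the members had 76.6 ± 13.7 (SD, n = 3), 76.7 ± 12.6 (SD, n = 4) and 82.1 ± 8.39 (SD, n = 4) counts in wild type, heterozygous and homozygous libraries.

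Within set 1 the homozygous share was 95.1% of wild type, with 2 libraries against 2. Within set 2 it was 130.6%, with 2 homozygous libraries (7.38% and 8.47%) against the single wild type library (6.07%). The direction of the small difference in the class I share was therefore not the same in both sets. The heterozygous share was 85.6% of wild type in set 1 and 126.9% in set 2.

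**Figure D1:**
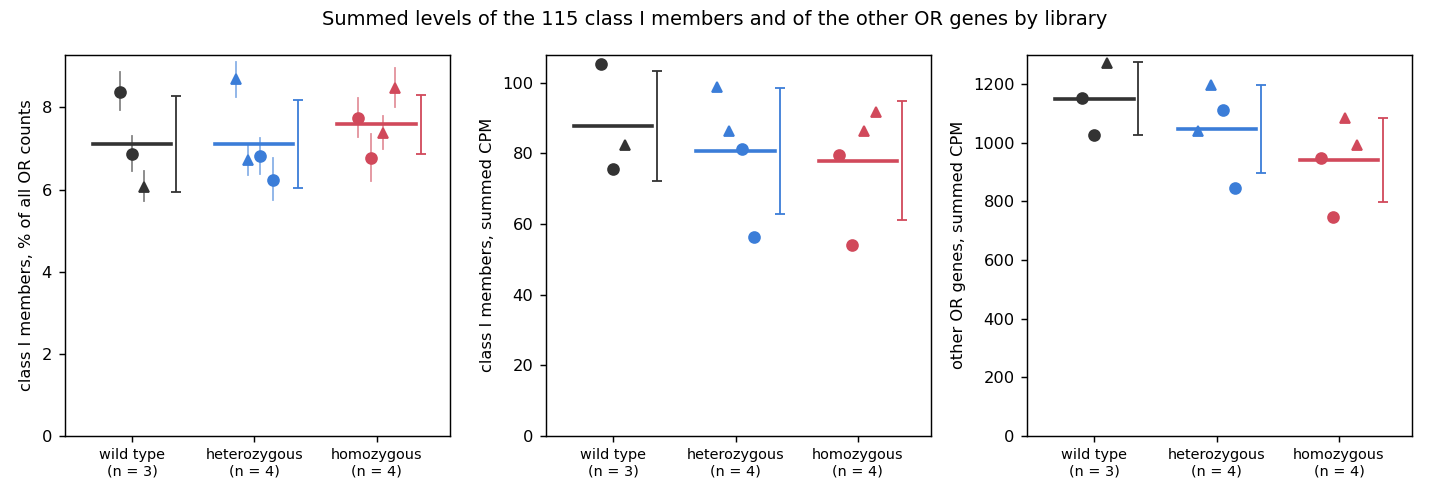
Summed levels by library in wild type (n = 3), heterozygous (n = 4) and homozygous (n = 4) mice: the class I members as a percent of all OR counts with 95% Wilson intervals (left), and the summed CPM of the class I members (middle) and of the other OR genes (right). Circles are libraries of set 1 and triangles those of set 2, horizontal lines are means and error bars SDs; the genotypes overlap in each panel, and the class I share lies between 6.07% and 8.68% in all 11 libraries.

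The summed class I level was also expressed as CPM, counts scaled to a common library total with TMM factors. Wild type had 87.7 ± 15.7 CPM (SD, n = 3), heterozygous libraries had 80.6 ± 17.9 CPM (SD, n = 4) and homozygous libraries had 78.0 ± 16.7 CPM (SD, n = 4). The homozygous mean was 88.9% of wild type, and the ranges overlapped, with 75.5 to 105.4 CPM in wild type and 54.0 to 91.8 CPM in homozygous libraries. Within set 1 it was 73.8% and within set 2 108.3%, so the direction of this difference turned with the set. For the other OR genes the homozygous mean was 82.0% of wild type (942.5 ± 143.3 CPM, SD, n = 4, against 1150 ± 124 CPM, SD, n = 3), and the ranges overlapped as well. This value was 77.8% within set 1 and 81.5% within set 2. In the 3 same-numbered pairs of a wild type and a homozygous library, the other OR genes were lower in the homozygous library of all 3 (1152 and 949.3, 1025 and 744.8, 1273 and 1084 CPM). The class I sum was lower in the first pairs (105.4 and 79.6, 75.5 and 54.0 CPM) and higher in the third (82.3 and 86.4 CPM). The labels do not pair these libraries, and libraries of the same set with other numbers also deviated together. Matched across numbers within a set, the class I sum was lower in homozygous replicate 2 than in wild type replicate 1 (54.0 and 105.4 CPM). It was higher in homozygous replicate 1 than in wild type replicate 2 (79.6 and 75.5 CPM), and in homozygous replicate 4 than in wild type replicate 3 (91.8 and 82.3 CPM). Over the 11 libraries the coefficient of variation was 19.2% for the class I sum, 14.8% for the sum of other OR genes and 12.5% for the class I share. Olfactory marker protein (Omp), a gene of mature OSNs, had a mean of 561.5 ± 196.7 CPM (SD, n = 3) in wild type. The Omp means of heterozygous and homozygous libraries were 501.8 ± 61.3 CPM (SD, n = 4) and 453.9 ± 77.6 CPM (SD, n = 4). Per 1000 Omp counts, wild type had 168.3 ± 59.2 (SD, n = 3), heterozygous libraries 159.5 ± 22.3 (SD, n = 4) and homozygous libraries 170.6 ± 9.91 (SD, n = 4) counts of members. These means depend on the mix of sets: relative to wild type the homozygous value per Omp count was 123.6% in set 1 and 74.2% in set 2, and that of Omp itself 59.7% and 146.0%. The 9 mature OSN markers had a median log2 fold change of -0.31 in homozygous against wild type, with 9 of 9 fitted values below 0. Of these 9 markers 0 had an unadjusted p-value under 0.05, against 3.02% of all tested genes. The part of mature OSNs in the class I values was not tested.

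Levels within the cluster were uneven. The 115 members held 10720 counts over all libraries, with a median of 62 counts per member. The 10 most abundant members held 28.6% of these counts, and 22 members held 50% of them. Counts were present in all 11 libraries for 77 members and in 1 to 10 libraries for 37. Between 93 members (homozygous replicate 2) and 111 members (heterozygous replicate 3) were detected in a library. Olfr688 was the only member with 0 counts in all libraries, which at a floor of 3 counts allows up to 0.204 to 0.327 CPM per library. Only 16.0% of the 51-base stretches of its transcript occur in no other gene. Among the 18 members with under 80% such stretches the median total was 29.5 counts, against 70 counts among the others. Olfr603 had 9 counts in all and 24.4% unique stretches, and its near-identical copy Olfr596 had 38 counts and 78.0% unique stretches. Together they had 10, 9 and 1 counts in the wild type, 1, 1, 3 and 3 in the heterozygous and 7, 3, 5 and 4 in the homozygous libraries. These low totals are therefore uncertain as levels of single genes.

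The most abundant member was Olfr550, in block 1 (chromosome 7, positions 102571442 to 102583011, mm10). It had 42, 47 and 43 counts in the wild type, 71, 60, 41 and 27 in the heterozygous and 24, 30, 67 and 52 in the homozygous libraries. In CPM this was 3.71 ± 0.216 (SD, n = 3), 4.08 ± 0.895 (SD, n = 4) and 3.67 ± 1.30 (SD, n = 4). The 3 wild type libraries lay close together and inside the homozygous range. The log2 fold change of homozygous against wild type was -0.01 (SE 0.31, 95% interval -0.69 to 0.67).

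Olfr544, a receptor for the dicarboxylic acid azelaic acid, lies near the start of the cluster. It had 45, 32 and 18 counts in the wild type, 46, 33, 17 and 22 in the heterozygous and 28, 21, 40 and 19 in the homozygous libraries. In CPM, wild type held both the highest (4.17) and the lowest (1.45) level of Olfr544, and the other genotypes lay between them. Between homozygous and wild type the log2 fold change was -0.23 (SE 0.37).

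Its neighbour Olfr543 is the first member of the cluster and was among the genes the study probed in tissue. It had 26, 19 and 25 counts in the wild type, 34, 27, 21 and 22 in the heterozygous and 22, 16, 47 and 38 in the homozygous libraries. In CPM, homozygous replicates 3 and 4, both of set 2, were high and the other homozygous libraries lay within the wild type range. The mean was 1.98 ± 0.444 CPM (SD, n = 3) in wild type and 2.58 ± 0.905 CPM (SD, n = 4) in homozygous libraries, with a log2 fold change of 0.39 (SE 0.32).

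Olfr578 and Olfr672 were also among the probed genes. Olfr578 had 36, 40 and 19 counts in the wild type, 52, 30, 31 and 18 in the heterozygous and 26, 9, 32 and 46 in the homozygous libraries. Olfr672, in block 4, had 28, 21 and 44 counts in the wild type, 52, 34, 24 and 12 in the heterozygous and 33, 13, 31 and 24 in the homozygous libraries. In both genes the genotypes overlapped, and homozygous replicate 2 was the lowest homozygous library. The log2 fold change of homozygous against wild type was -0.17 (SE 0.43) for Olfr578 and -0.28 (SE 0.38) for Olfr672.

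Olfr558, a receptor for isovaleric acid that is also expressed in vascular smooth muscle, had 26, 19 and 27 counts in the wild type libraries. It had 25, 23, 32 and 28 in the heterozygous and 24, 16, 21 and 13 in the homozygous libraries. The homozygous mean of 1.61 ± 0.379 CPM (SD, n = 4) was below the heterozygous mean of 2.38 ± 0.730 CPM (SD, n = 4), with overlapping ranges. The fitted change, the log2 fold change of homozygous against heterozygous, was -0.56 (SE 0.31, unadjusted p = 0.0973 in edgeR's quasi-likelihood test), the lowest p-value of a member in that comparison. The annotated exons of Olfr558 overlap those of Gm45688.

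Olfr644, in block 2, showed the highest fitted value of a member in homozygous against wild type. Its counts were 17, 18 and 19 in the wild type libraries, 43, 16, 23 and 11 in the heterozygous libraries, and 46, 24, 16 and 17 in the homozygous libraries. The wild type libraries were nearly equal, and single heterozygous and homozygous libraries (replicate 1 of each) were above the rest. The log2 fold change of 0.58 (SE 0.46, 95% interval -0.42 to 1.58) ranged from 0.19 (without homozygous replicate 1) to 0.80 (without homozygous replicate 3) when single libraries were left out.

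The remaining members of the 10 most abundant were Olfr665, Olfr566 and Olfr598. Olfr665 had a wild type mean of 1.91 ± 0.174 CPM (SD, n = 3) and a homozygous mean of 2.06 ± 0.448 CPM (SD, n = 4). Olfr566 had a wild type mean of 1.81 ± 0.518 CPM (SD, n = 3) and a homozygous mean of 1.97 ± 0.622 CPM (SD, n = 4). Olfr598 had a wild type mean of 2.26 ± 0.723 CPM (SD, n = 3) and a homozygous mean of 1.63 ± 0.701 CPM (SD, n = 4). In these genes the difference was within the SD of a genotype. For Olfr598 the sum with its copy Olfr597 was 34, 22 and 39 counts in the wild type, 47, 30, 19 and 20 in the heterozygous and 25, 8, 31 and 30 in the homozygous libraries. These sums overlapped between genotypes too.

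**Figure D2:**
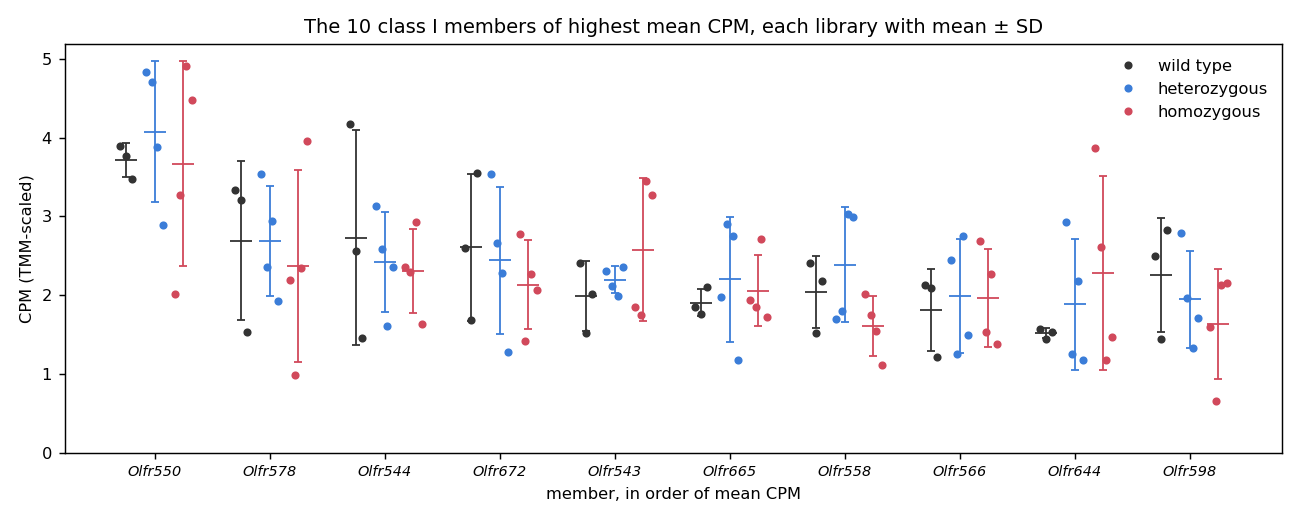
CPM of the 10 class I members of highest mean CPM in each of the 11 libraries, with points for libraries and dashes and bars for the mean ± SD of wild type (n = 3), heterozygous (n = 4) and homozygous (n = 4) mice. Genotypes overlap for each of these members, and Olfr550 is the most abundant with a mean of 3.83 CPM.

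Since longer transcripts collect more counts, levels were compared between members per kilobase of annotated exons. Olfr672 had 1.59 and Olfr543 1.56 CPM per kilobase, and Olfr550 had 0.772. Of the 10 members of highest CPM, 8 were also among the 10 of highest CPM per kilobase. The gene models behind the counts are not given in the sources used here, and the RefSeq annotation holds models shorter than 1200 bases for 104 of the 115 members, so this order is approximate. Of the 11 members with a RefSeq span of 1200 bases or more, 4 (Olfr550, Olfr544, Olfr558 and Olfr566) were among the 10 of highest CPM, and the part of the gene models in the order of levels was not tested. The order of the members was alike between genotypes over the whole range of levels, and less so among the highest. Across the 115 members Spearman's rho of the mean CPM was 0.94 between wild type and homozygous, 0.91 between wild type and heterozygous and 0.93 between heterozygous and homozygous libraries. This is a correlation across genes, which share libraries and sequence and are not independent. Of the 10 members of highest mean CPM in a genotype, 5 were shared between wild type and homozygous, 7 between wild type and heterozygous and 8 between heterozygous and homozygous libraries.

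The probed class I genes outside the 10 most abundant were Olfr547, Olfr552, Olfr639, Olfr653, Olfr690 and Olfr692. Olfr552 had 10, 12 and 7 counts in the wild type, 13, 10, 12 and 4 in the heterozygous and 16, 3, 19 and 15 in the homozygous libraries. Its homozygous libraries were above wild type except for replicate 2, which was the lowest of all, and the log2 fold change was 0.44 (SE 0.48). Olfr690, another receptor for isovaleric acid, had a wild type mean of 1.39 ± 0.795 CPM (SD, n = 3) and a homozygous mean of 1.03 ± 0.482 CPM (SD, n = 4). Olfr653 had a wild type mean of 1.64 ± 0.607 CPM (SD, n = 3) and a homozygous mean of 1.81 ± 0.780 CPM (SD, n = 4). Olfr692, which is known for its expression in the vomeronasal organ, had a wild type mean of 0.645 ± 0.0783 CPM (SD, n = 3) and a homozygous mean of 0.687 ± 0.371 CPM (SD, n = 4). Olfr547 and Olfr639 held 11 and 59 counts in all and were under the count filter of the test. The 10 probed genes together had 14.0 ± 1.74 CPM (SD, n = 3) in wild type, 13.9 ± 3.93 CPM (SD, n = 4) in heterozygous and 14.3 ± 3.72 CPM (SD, n = 4) in homozygous libraries. Of these 10 genes 8 were tested in edgeR, and an unadjusted p-value under 0.05 was reached by 0 of them in any comparison.

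The test across all genes took 45 of the 115 members (39.1%) past the filter on low counts, against 523 of the 1010 other OR genes (51.8%). The 45 tested members held 73.7% of the class I counts. In homozygous against wild type, 0 of the 45 had an adjusted p-value under 0.05, where 0.0% of all 16574 tested genes did. The lowest adjusted p-value of any gene in edgeR's F-test was 0.173. The deleted Taar genes were thus not called either, though their counts fell in homozygous libraries. A count of 0 members after adjustment therefore does not show that members were unchanged. The unadjusted p-value was under 0.05 for 0 members as well, against 3.02% of all tested genes and 35 of the 523 other OR genes (6.69%), all lower. The median log2 fold change of the tested members was -0.17, with 25 values below 0 and 20 above. It was -0.30 over the other OR genes and 0.02 over all tested genes. Without wild type replicate 1 the median of the members was 0.02, and without homozygous replicate 2 it was also 0.02. DESeq2 called 0 members after adjustment, and in it 1 member (Olfr556) had an unadjusted p-value under 0.05.

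The standard errors set the size of change that could be seen. The median SE of a member was 0.45 on the log2 scale, with a range from 0.31 to 0.65. For 6 members (Olfr550, Olfr665, Olfr566, Olfr640, Olfr683 and Olfr686, the last 3 named after their values were seen) the 95% interval lay within 1 log2 unit of no change in both directions. For 31 members the interval reached a log2 fold change of -1 or lower. Changes of that size in single members were therefore not excluded at this depth.

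**Figure D3:**
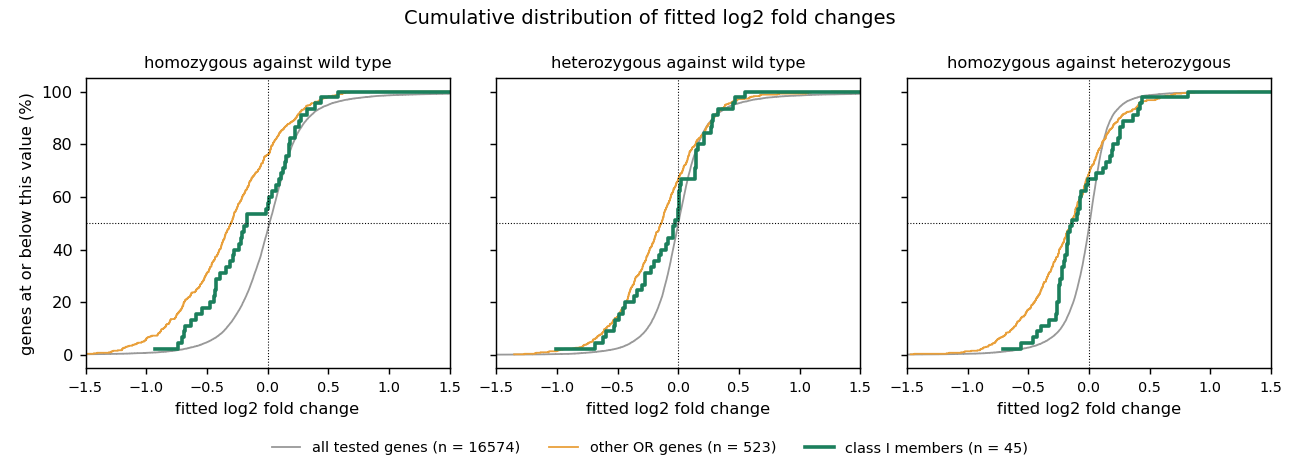
Cumulative distribution of fitted log2 fold changes over the 45 tested class I members, the 523 tested other OR genes and all 16574 tested genes in the 3 comparisons; dotted lines mark a value of 0 and the median. In homozygous against wild type the class I median (-0.17) lies between that of the other OR genes (-0.30) and that of all genes (0.02).

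The lowest fitted value in homozygous against wild type was that of Olfr611, a gene described because of its value. It had 12, 11 and 16 counts in the wild type, 15, 12, 7 and 3 in the heterozygous and 9, 2, 9 and 7 in the homozygous libraries. All homozygous libraries were below all wild type libraries in CPM, and the heterozygous libraries overlapped both. In edgeR the fitted log2 fold change was -0.93 (SE 0.46, 95% interval -1.93 to 0.08), and its p-value was 0.0621 before and 0.996 after adjustment. Of its 51-base stretches 54.3% are unique. Summed with its copy Olfr612, which had 28 counts in all, the pair had a wild type mean of 1.40 ± 0.206 CPM (SD, n = 3) and a homozygous mean of 0.763 ± 0.159 CPM (SD, n = 4). The groups of this sum did not overlap (1.2 to 1.61 against 0.545 to 0.925 CPM). Since Olfr611 itself held 103 counts, the sum largely repeats its values and is no separate result.

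In all, the groups did not overlap for 3 of the 45 tested members, Olfr611, Olfr619 and Olfr655, each lower in homozygous libraries. This is near the 4.99% of all tested genes whose groups did not overlap. Olfr619 had 9, 13 and 11 counts in the wild type libraries and 9, 6, 11 and 6 counts in the homozygous libraries. Olfr655 had 13, 17 and 14 counts in the wild type libraries and 7, 4, 12 and 13 counts in the homozygous libraries. The raw counts overlap or nearly touch in both genes, so their separation rests on the scaling by library size.

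In heterozygous against wild type, 0 of the 45 members had an unadjusted p-value under 0.05, against 2.24% of all tested genes, and 0 passed after adjustment, where 0.0% of all tested genes did. DESeq2 gave 0 members on both counts. The median log2 fold change was -0.03 over the members, with 25 values below 0 and 20 above, and -0.14 over the other OR genes. Without heterozygous replicate 4 the median of the members was 0.11. Groups did not overlap for 0 members, against 2.51% of all tested genes. The lowest value was that of Olfr549, named for its value, with 17, 13 and 7 counts in the wild type libraries and 10, 7, 4 and 4 counts in the heterozygous libraries. Wild type replicate 3 lay within the heterozygous range, and edgeR gave a log2 fold change of -1.01 (SE 0.54) at an unadjusted p of 0.0795. This value was -0.625 without wild type replicate 1 and -1.31 without wild type replicate 3. In homozygous libraries Olfr549 had 15, 2, 16 and 11 counts, so 3 of the 4 were above every heterozygous library, and replicate 2 was below all of them. The highest value was 0.55 (SE 0.62) for Olfr643, whose exons overlap those of Olfr638, Olfr639 and Olfr640. It was 0.33 without wild type replicate 3, 0.80 without wild type replicate 1 and 0.27 when the library set was a term of the fit.

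In homozygous against heterozygous, 0 of the 45 members had an unadjusted p-value under 0.05, against 0.561% of all tested genes, and 0 passed after adjustment, where 0.0% of all tested genes did. DESeq2 gave 1 member at an unadjusted p-value under 0.05 and 0 after adjustment. The median log2 fold change was -0.14, with 30 values below 0 and 15 above, and it was -0.15 over the other OR genes. Without heterozygous replicate 1 the median of the members was 0.06. No member had groups without overlap, where 0.597% of all tested genes did. Values ranged from -0.71 (SE 0.48) for Olfr557 to 0.81 (SE 0.51) for Olfr549, both named for their values. That of Olfr557 was -0.45 without homozygous replicate 2 and -1.29 without homozygous replicate 3. The 3 comparisons share libraries in pairs, so their values are not independent of each other.

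Position in the cluster was examined by block. The 66 members of block 1, which spans 1280 kb at the start of the cluster, took a share of class I counts of 58.0% ± 2.01 (SD, n = 3) in wild type. The share was 58.6% ± 3.02 (SD, n = 4) for heterozygous and 54.8% ± 2.79 (SD, n = 4) for homozygous libraries. The 15 members of block 2, just past the β-globin genes, took 9.46% ± 1.28 (SD, n = 3), 12.1% ± 0.442 (SD, n = 4) and 12.2% ± 2.31 (SD, n = 4). In block 2 the heterozygous range (11.5% to 12.6%) was above that of wild type (8.05% to 10.6%), whereas the homozygous range (10.3% to 15.4%) overlapped both. Block 3 took 9.48% ± 0.993 (SD, n = 3), 7.80% ± 2.02 (SD, n = 4) and 9.25% ± 0.597 (SD, n = 4), and block 4 took 23.0% ± 1.94 (SD, n = 3), 21.5% ± 1.83 (SD, n = 4) and 23.7% ± 2.03 (SD, n = 4). The median log2 fold change of homozygous against wild type was -0.26 over the 24 tested members of block 1, 0.22 over 5 of block 2, -0.10 over 6 of block 3 and 0.07 over 10 of block 4. These block values are descriptions and were not tested.

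**Figure D4:**
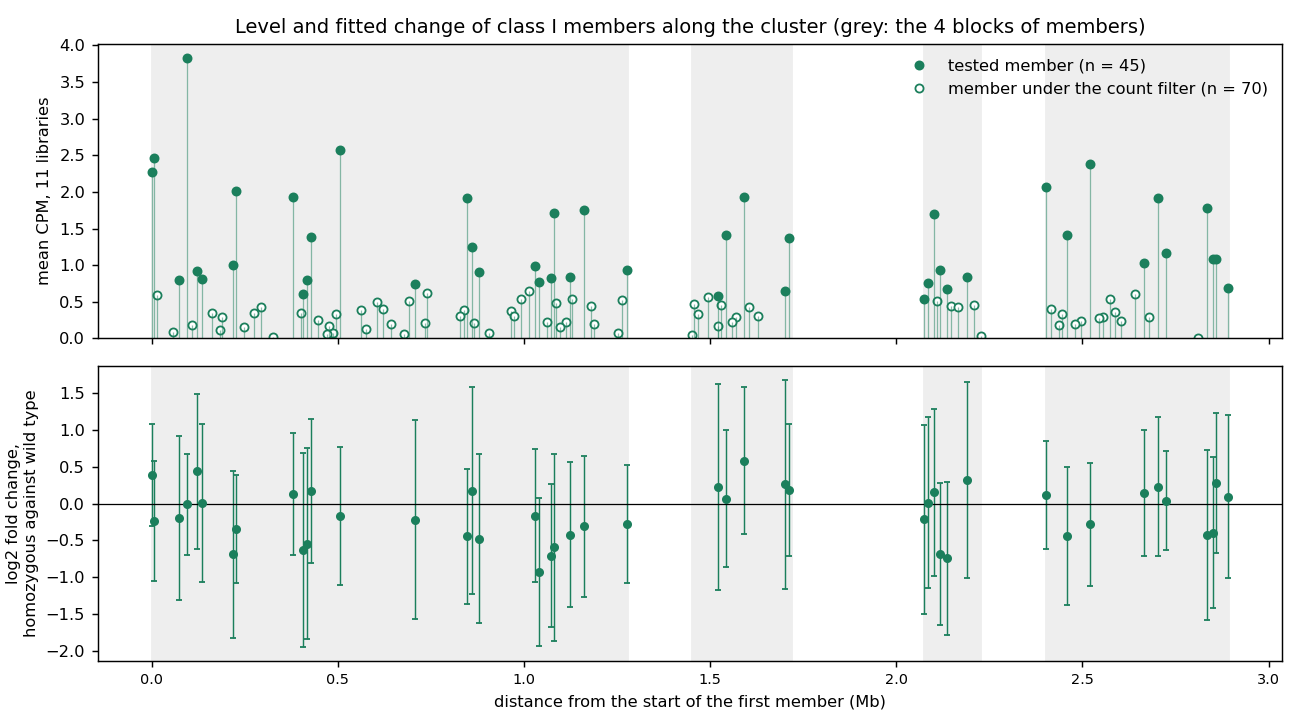
Mean CPM over the 11 libraries of each of the 115 members (top; filled, 45 tested members; open, 70 members under the count filter) and the log2 fold change of homozygous against wild type with its 95% interval for tested members (bottom), by distance in Mb from the start of the first member. Grey bands are the 4 blocks. Members of higher and of lower level lie in each block, and all 45 intervals include 0.

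The 70 members under the filter were examined as a sum, since they allow no test of their own. Of the OR counts they took 1.98% ± 0.419 (SD, n = 3) in wild type, against 1.85% ± 0.165 (SD, n = 4) for heterozygous and 1.99% ± 0.211 (SD, n = 4) for homozygous libraries, with overlapping ranges. The 10 most abundant members took 1.89% ± 0.262 (SD, n = 3), 2.16% ± 0.302 (SD, n = 4) and 2.22% ± 0.0587 (SD, n = 4). For the latter the lowest homozygous library (2.144%) was just above the highest wild type library (2.138%), and the heterozygous range of 1.84% to 2.56% held both.

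Of the 9 OR genes with other numbers inside the interval 5 were tested in edgeR, and an unadjusted p-value under 0.05 was seen for 0 of them in any comparison. Over all tested genes the share was 0.561% to 3.02%, so a count of 0 among so few genes says little. Olfr78, which responds to short-chain fatty acids and is expressed in the carotid body and kidney vessels, had 29, 29 and 30 counts in the wild type libraries. It had 25, 57, 20 and 34 in the heterozygous and 28, 30, 26 and 36 in the homozygous libraries, with a log2 fold change of 0.10 (SE 0.37) in homozygous against wild type. Olfr33 had 14, 12 and 9 counts in the wild type, 11, 6, 5 and 0 in the heterozygous and 2, 3, 6 and 10 in the homozygous libraries. In edgeR its homozygous value differed from wild type by a log2 fold change of -1.12 (SE 0.67) at an unadjusted p of 0.115, with homozygous replicate 4 inside the wild type range.

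Among the genes that are no receptors but lie inside the interval, Trim68, Trim21 and Trim12c, of the Trim family, had log2 fold changes of -0.07 (SE 0.29), 0.08 (SE 0.43) and 0.05 (SE 0.25) in homozygous against wild type. The adult β-globin genes Hbb-bt and Hbb-bs between blocks 1 and 2 were listed at 0 in all libraries. Only 41.8% and 46.9% of their 51-base stretches are unique, and the erythrocyte marker Alas2 had 1567 counts in all. These zeros are therefore uncertain as levels.

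Genes of the olfactory zones and of OR regulation were given beside the class I values. The dorsal zone genes Nqo1, a quinone reductase, and Acsm4, an acyl-CoA synthetase, had log2 fold changes of -0.31 (SE 0.22) and -0.29 (SE 0.23) in homozygous against wild type. The ventral zone genes Ncam2 and Nrp2, a cell adhesion molecule and a semaphorin receptor, had values of -0.26 (SE 0.28) and 0.14 (SE 0.19). Among the 11 regulators were Bcl11b, which is known to limit class I choice, with -0.04 (SE 0.34), and the enhancer-binding factors Lhx2, Ldb1 and Ebf1, with 0.22 (SE 0.18), 0.44 (SE 0.45) and -0.02 (SE 0.18). The receptor-transporting protein genes Rtp1 and Rtp2, which help ORs to reach the cell surface, had -0.25 (SE 0.18) and -0.32 (SE 0.23). The others (Emx2, Kdm1a, Atf5, Adcy3 and Tshz1) lay between -0.16 and 0.12. Of the 4 zone genes and the 11 regulators, 0 had an unadjusted p-value under 0.05 in edgeR's quasi-likelihood test in any comparison. Over all tested genes the share was 0.561% to 3.02%.

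Markers of other cells were present in these whole-tissue libraries. The 6 skeletal muscle markers summed to 5.47 to 50 CPM in wild type, 14.1 to 1470 CPM in heterozygous and 16.3 to 687 CPM in homozygous libraries. In homozygous against wild type 4 of these 6 genes were higher at an unadjusted p-value under 0.05, and in heterozygous against wild type all 6 were. Of all tested genes 3.02% and 2.24% were under 0.05 in these comparisons. The 6 genes mark 1 tissue and are not independent. Libraries of a genotype differed widely: Acta1 had 11, 162 and 62 counts in wild type, 89, 1979, 61 and 4170 in heterozygous and 406, 1179, 3677 and 67 in homozygous libraries. The 4 sustentacular markers summed to 1510 to 2130 CPM in wild type and 915 to 1800 CPM in homozygous libraries, and the 5 immature OSN markers to 1170 to 1540 and 1220 to 1590 CPM, each with 0 at an unadjusted p-value under 0.05. The 3 neuronal precursor markers summed to 74.8 to 116 CPM in wild type and 88.3 to 132 CPM in homozygous libraries, and the 3 respiratory ciliated markers to 242 to 497 and 256 to 580 CPM. Of the 5 erythrocyte markers, 3 globin genes were listed at 0 and the sum was 9.30 to 14.8 CPM in wild type and 9.61 to 20.6 CPM in homozygous libraries. The part of these other cells in the class I values was not tested.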

How the data were processed

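Whole MOE RNA was sequenced in 11 libraries after polyA selection with a directional kit. Per the labels and the study's methods, the authors trimmed reads (Trimmomatic 0.36), aligned them to mm10 (Hisat2 2.1.0) and deposited raw counts per gene from featureCounts (Subread 1.6.2). Annotation, strand setting and handling of reads with several positions are not given in the sources used here. The authors' methods name DESeq2 (1.20.0), and the normalised table they deposited was not used here. The count table held 24421 entries and 0 columns of no sample.

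Counts were tested in edgeR (4.0.16, R 4.3.3) with TMM scaling, filtering by filterByExpr, 1 quasi-likelihood model of genotype for the 11 libraries together, F-tests and Benjamini-Hochberg adjustment over the 16574 tested genes at 0.05. Standard errors and 95% intervals came from the quasi-likelihood variance of each contrast. DESeq2 (1.42.0), RLE scaling, no filter, a replicate block, the library set as a covariate, fits of 2 genotypes and leaving out each library were the alternatives. Sums, shares and medians over members carry no test. Coordinates and sequences came from GENCODE M21, reading frames were the longest from ATG to stop, and identities came from Biopython (1.88). Depth was 9239866 to 14632525 counts per library. The Wilson intervals and the floors cover counting error only. No 2 libraries of a genotype agreed within sampling noise.

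The members, lists and tests were chosen with earlier results of these data known. Named were the 10 tested members of highest mean CPM, the 10 class I genes probed in tissue, members with an unadjusted p-value under 0.05 (which yielded 0 genes) and genes of the lists. Any other gene was named after its values were seen. Same-numbered wild type and homozygous libraries deviated together over tested genes (r = 0.326, 0.415 and 0.396 for replicates 1 to 3), while same-numbered heterozygous and wild type libraries did not (-0.188, -0.379 and -0.228). Differently numbered libraries of the same set also correlated: 0.364 for wild type 1 and homozygous 2, 0.243 for wild type 2 and homozygous 1, and 0.467 for wild type 3 and homozygous 4. The numbers thus follow the library sets in part, and the labels do not say what they mark. Some results on other genes inside the interval are not reported here.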

Additional observations from a re-analysis of the deposited data

Results flagged for a closer look

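In groups of 4 libraries the gap of the highest or lowest library to the rest was set against Dixon's critical value. This was done for 48 groups of class I sums, blocks and named members, and chance alone flags about 1 in 20. In 4 of them a library stood apart.

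In heterozygous libraries Olfr639 was at 0.758 CPM in replicate 3 and at 0.392 to 0.428 CPM in the others. In homozygous libraries Olfr552 was at 0.327 CPM in replicate 2, the library with the large Rn45s share, and at 1.29 to 1.39 CPM in the others. Olfr547 was at 0.0734 CPM in homozygous replicate 3, which is 1 count, and at 0 in the others. The members had 155.8 counts per 1000 Omp counts in homozygous replicate 2 and 174.8 to 176.6 in the other homozygous libraries.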

How the results depend on the processing

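After adjustment 0 class I members passed in each of the 18 alternatives of each comparison. In the edgeR fit reported, 0 of the 16574 tested genes passed in any comparison, so these counts do not show that members were unchanged. The count at an unadjusted p-value under 0.05 was also 0 in the edgeR fit reported, and a few alternatives gave 1 to 3 members. In homozygous against wild type it was 3 of 45 with the library set as a covariate (Olfr611, Olfr615 and Olfr655, all lower), where 6.83% of all tested genes were under 0.05 in the same fit. It was 1 of 114 without a filter (2.96% of all tested genes) and 1 of 114 in DESeq2 (2.93%), Olfr556 in both, and 0 to 1 when single libraries were left out (1.92% to 4.36%). In heterozygous against wild type it was 2 of 114 without a filter (2.4%), 1 of 45 with the set as a covariate (4.55%) and 0 to 3 when single libraries were left out (1.36% to 3.66%), with 3 of 51 without wild type replicate 3. In homozygous against heterozygous it was 3 of 114 without a filter (0.954%), 1 of 114 in DESeq2 (0.556%) and 0 to 1 when single libraries were left out (0.321% to 1.09%). The cause of these changes was not tested. These members were named after their values were seen.

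With the replicate number as a block, the median log2 fold change of the tested members was -0.05 in homozygous against wild type, -0.01 in heterozygous against wild type, and -0.14 between homozygous and heterozygous libraries. In a fit of wild type and homozygous libraries alone with the block, chosen after seeing the data, 1 of 40 tested members (Olfr615) had an unadjusted p-value under 0.05, as did 6.31% of all tested genes, and the median was -0.27. The block changed no other call. When single libraries were left out the median ranged from -0.20 to 0.02 in homozygous against wild type, from -0.21 to 0.11 in heterozygous against wild type and from -0.31 to 0.06 in homozygous against heterozygous, so its sign is not settled.

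The class I share fell to 5.79% in wild type, 5.80% in heterozygous and 6.35% in homozygous libraries when members with overlapping exons or a close copy were left out. With all OR genes located in the interval it was 7.80% in wild type and in heterozygous and 8.42% in homozygous libraries. With only tested OR genes in both sums, an alternative chosen after seeing the data, it was 6.10%, 6.26% and 6.62% in the same order. When single libraries were left out it ranged from 6.47% to 7.62% in wild type, 6.59% to 7.41% in heterozygous and 7.29% to 7.86% in homozygous libraries, and the ratio to wild type from 92.8% to 110.0% in heterozygous and from 99.6% to 117.3% in homozygous libraries. Within library set 2 the ratio was 130.6% in homozygous and 126.9% in heterozygous libraries, against a single wild type library. Low counts limit single members: 70 of 115 could not be tested.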
